A study of Schizosaccharomyces pombe with 2 samples.

Results

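The nuclear transfer RNA (tRNA) genes of fission yeast, Schizosaccharomyces pombe, were taken as every feature of the count table on chromosomes I, II and III whose identifier names a tRNA gene. This gave 171 of 12684 features, with 56 on chromosome I, 68 on chromosome II and 47 on chromosome III. All 20 amino acids had genes, with 3 to 13 gene copies each. The 2 libraries are biological replicates of 1 group, labelled vegetative wild type (wt) cells. These are haploid h- cells carrying leu1-32 and pat1-L95G::kanR, an allele of the gene of the Pat1 kinase. The cells were grown in the minimal medium EMM at 30 °C, and the series holds no comparison between conditions. Total RNA was depleted of rRNA, tailed in vitro with poly(A) polymerase and read by direct RNA sequencing, in which native RNA strands pass through a nanopore with their 3′ end first. Values are reads assigned to each gene, and CPM is reads per 1000000 reads assigned in that library. The word level below means these counts only. How they relate to the amount of a tRNA in the cell was not tested, nor was the recovery of RNAs of different length.

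tRNAs carry amino acids to the ribosome and pair their anticodon with the codon of the mRNA. Their genes are transcribed by RNA polymerase III from promoter boxes within the gene, with a run of T on the coding strand as the termination signal. The precursor is trimmed at both ends, some precursors lose a short intron next to the anticodon, and the mature tRNA is heavily modified. In fission yeast, some serine and initiator methionine tRNA genes are known to lie so close together that they are transcribed as a single precursor, which is then cut into both tRNAs. tRNA genes are also known to line the centromeres of this yeast, where some of them bound the domains of heterochromatin.

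In all, 4 pairs of tRNA genes lay head to tail with 5 to 7 nt between them, and these are the loci on which most of the reads fell. The sequences below, from the RefSeq genome of assembly ASM294v3, run from the start of the first gene to 20 nt past the end of the second. Capitals mark the spacer between the genes and the first run of at least 4 T after the pair. The last entry is the only gene with the same 72 nt sequence as the 3 methionine genes of the serine and methionine pairs that stands alone, and its capitals mark its run of T.
SPATRNASER.01 and SPATRNAMET.01, chrI:1096369-1096565 (plus strand): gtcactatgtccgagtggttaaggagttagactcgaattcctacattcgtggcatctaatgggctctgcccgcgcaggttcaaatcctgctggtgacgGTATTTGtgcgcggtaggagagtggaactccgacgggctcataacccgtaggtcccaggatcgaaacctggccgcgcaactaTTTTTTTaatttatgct
SPATRNASER.03 and SPATRNAMET.03, chrI:4265149-4265344 (plus strand): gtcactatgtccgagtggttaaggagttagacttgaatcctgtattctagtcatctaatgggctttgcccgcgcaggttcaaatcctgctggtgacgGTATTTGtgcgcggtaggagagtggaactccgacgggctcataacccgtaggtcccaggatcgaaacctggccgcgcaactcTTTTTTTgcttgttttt
SPBTRNAMET.05 and SPBTRNAASN.01, chrII:1597976-1598155 (minus strand): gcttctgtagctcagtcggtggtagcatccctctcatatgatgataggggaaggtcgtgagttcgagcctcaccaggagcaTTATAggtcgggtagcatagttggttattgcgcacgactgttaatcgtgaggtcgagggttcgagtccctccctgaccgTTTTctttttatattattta
SPCTRNASER.11 and SPCTRNAMET.07, chrIII:1689713-1689908 (plus strand): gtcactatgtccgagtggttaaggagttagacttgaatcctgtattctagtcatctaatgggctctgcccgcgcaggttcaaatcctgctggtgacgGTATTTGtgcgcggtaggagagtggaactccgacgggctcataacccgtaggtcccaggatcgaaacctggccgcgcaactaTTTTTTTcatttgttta
SPBTRNAMET.06, chrII:2434283-2434374 (minus strand): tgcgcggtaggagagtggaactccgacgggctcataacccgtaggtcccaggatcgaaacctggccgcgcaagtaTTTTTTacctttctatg

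The spacer read GTATTTG in all 3 serine and methionine pairs, and none of the 4 spacers held a run of 4 T. The first such run came 3 nt after each of these methionine genes, and directly after the asparagine gene of the fourth pair. The serine genes carried introns of 16, 15 and 15 nt and the anticodons CGA, TGA and TGA, and SPATRNASER.03 and SPCTRNASER.11 differed at 1 position of 97. The methionine gene of the fourth pair, SPBTRNAMET.05, is another sequence of 81 nt with an intron of 7 nt. Among the 163 tRNA genes outside the pairs, 156 (95.7%) held TTTT on their own strand in the first 20 nt after the gene, against 17.4% of all 20 nt windows of the plus strand of the 3 chromosomes. Such a match is a description of the letters only.

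SPATRNASER.01 had 1556 reads in replicate 1 and 1230 in replicate 2, and its partner SPATRNAMET.01 had 1538 and 1215. SPCTRNASER.11 had 1026 and 680 reads, and its partner SPCTRNAMET.07 had 1028 and 678. SPATRNASER.03 had 756 and 506 reads, and its partner SPATRNAMET.03 had 759 and 506. The partners therefore differed by 0 to 18 reads within a library, far less than the pairs differed from each other. SPBTRNAMET.05 had 418 and 313 reads, and its partner SPBTRNAASN.01, which lies after it on the minus strand of chromosome II, had 420 and 313. Nothing in the sources used here says how a read over both genes was counted. If it was counted at each gene, the reads of a pair were counted 2 times. The next closest genes annotated on 1 strand, SPBTRNAARG.06 and SPBTRNAASP.05, were 86 nt apart, but the annotated strand of SPBTRNAASP.05 is the opposite of an aspartate tRNA. After these came SPBTRNALYS.07 and SPBTRNAILE.05, 297 nt apart, with 24 and 4 reads in replicate 1 and 12 and 1 in replicate 2. SPBTRNALYS.08 and SPBTRNAILE.08 had the same gap, with 19 and 3 reads in replicate 1 and 10 and 2 in replicate 2.

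The 8 pair genes together held 12942 of the 16985 reads of all tRNA genes in both libraries, or 76.2%. Their share was 77.0% in replicate 1 and 75.1% in replicate 2. If a read over both genes of a pair was counted at each, these shares hold the same reads more than once and are too high. The share among tRNA reads with each pair counted once was not computed. Each pair gene had 731 to 2786 reads in sum, and no other tRNA gene had more than 245, so the ranges did not overlap. The other 163 genes had a median of 7 reads in sum over both libraries. As mean CPM, SPATRNASER.01 reached 109 ± 16.3 and SPATRNAMET.01 reached 108 ± 16.2 (SD, n = 2). SPCTRNASER.11 and SPCTRNAMET.07 stood at 66.9 ± 18.1 and 66.9 ± 18.4 CPM (SD, n = 2), and SPATRNASER.03 and SPATRNAMET.03 at 49.5 ± 13.1 and 49.6 ± 13.3 CPM (SD, n = 2). The fourth pair was lower, with 28.7 ± 5.37 CPM at SPBTRNAMET.05 and 28.8 ± 5.48 CPM at SPBTRNAASN.01 (SD, n = 2).

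Of the pair genes, 4 lie opposite an annotated non-coding RNA that contains both genes of the pair. SPNCRNA.2479, opposite SPATRNASER.01 and SPATRNAMET.01, had 1 read in replicate 1 and 0 in replicate 2. SPNCRNA.7463, opposite SPCTRNASER.11 and SPCTRNAMET.07, had 4 and 2 reads. The reads at these pairs were thus counted on the strand of the tRNA genes. In all, 24 tRNA genes overlapped a feature of the opposite strand and 0 overlapped another feature of their own strand.

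The tRNA genes as a whole held 9739 of 12871729 assigned reads in replicate 1 and 7246 of 12579850 in replicate 2. This was 0.0757% (Wilson 95% interval 0.0742 to 0.0772%) and 0.0576% (0.0563 to 0.0589%), with a mean of 0.0666% ± 0.0128 (SD, n = 2). Without the pair genes the share was 0.0174% in replicate 1 and 0.0143% in replicate 2. With each pair counted once, as the mean of its genes, the mean share was 0.0412%, an alternative added after seeing the data. The intervals cover counting error only. The tRNA genes had a median of 9 reads in sum, against 229 for 32 snoRNA features of 110 nt or less. The 25 tRNA features of the mitochondrial genome, which are not nuclear genes, were listed at 0 in both libraries, as was the rest of that contig.

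Most tRNA genes had few reads. In sum over both libraries, 12 genes had 0 reads, 75 had 1 to 9, 66 had 10 to 99, 10 had 100 to 245, and the 8 pair genes had more. With a one-sided 95% limit, a count of 0 allows up to 3 reads, which is 0.233 CPM at the depth of replicate 1 and 0.238 CPM at that of replicate 2. Among the genes at 0 were SPATRNAMET.02, the longest methionine gene with 83 nt, and SPATRNAASP.02. Across the 171 genes the reads of the 2 libraries had a Spearman rho of 0.902, given as a description because genes are not independent replicates.

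By amino acid, the genes of methionine and serine had far more reads than the rest. The partners of a pair fall under 2 amino acids. If a read over both genes was counted at each, the same reads entered the total of methionine and that of serine or asparagine. An order with each pair counted once was not computed. The 7 methionine genes had 3751 reads in replicate 1 and 2717 in replicate 2, which is 254 ± 53.3 CPM, and the 13 serine genes had 3505 and 2539, which is 237 ± 49.8 CPM (SD, n = 2). Their ranges in CPM over the libraries overlapped, but methionine was above serine within each library. Asparagine (6 genes) followed with 514 and 371 reads and leucine (13 genes) with 444 and 373, again overlapping in CPM. Proline, arginine, lysine, isoleucine and phenylalanine stood between 17.5 and 11.96 CPM, and each overlapped its neighbour in this order. Tyrosine had 7.54 ± 0.122 CPM, valine 6.17 ± 0.0445 CPM and alanine 5.73 ± 0.907 CPM (SD, n = 2). At the low end, tryptophan (3 genes) had 5 and 9 reads and aspartate (8 genes) had 6 and 6, or 6 and 4 without SPBTRNAASP.05. Of the 19 neighbours in the order of the 20 amino acids, 11 overlapped in their range over the libraries and 8 did not. Of the 11, 5 nevertheless kept their order within each library, namely methionine over serine, proline over arginine, arginine over lysine, lysine over isoleucine and glutamine over glutamate. Summed as reads per 100 nt of gene, the order was the same except that phenylalanine passed isoleucine and alanine passed valine.

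**Figure D1:**
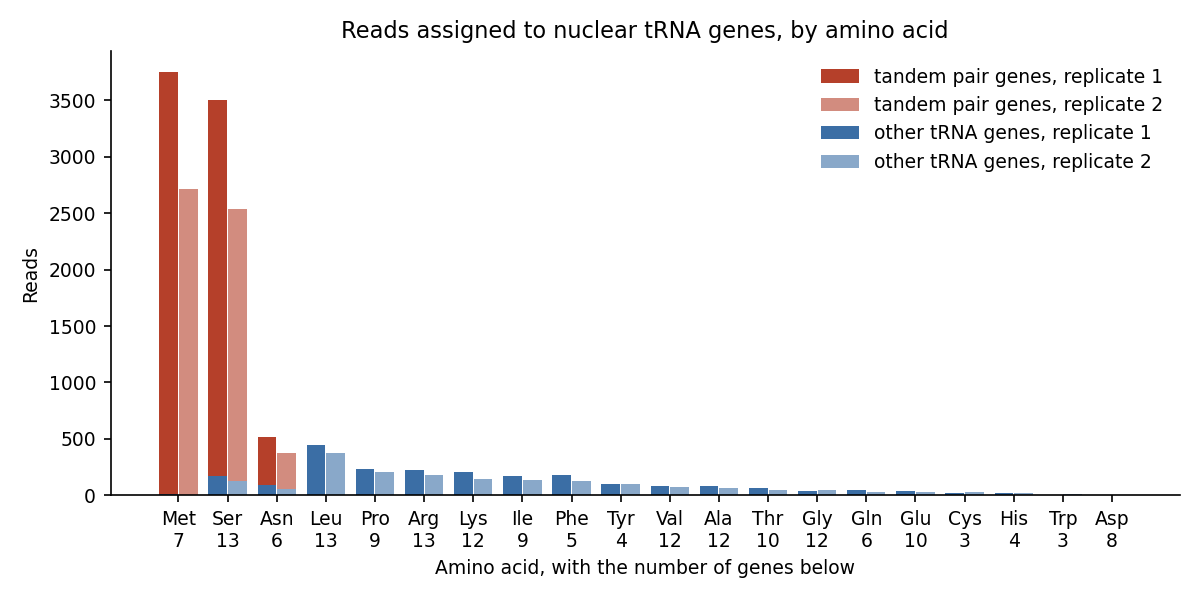
Reads assigned to nuclear tRNA genes in each library, summed by amino acid, with the number of genes under each name. Dark bars are replicate 1 and pale bars replicate 2, red is the tandem pair genes and blue the other genes. The pair genes make up nearly all reads of methionine and serine, and methionine without them held 13 reads in both libraries.

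Without the pairs the order was another. Without the pair genes, the 3 remaining methionine genes held 8 reads in replicate 1 and 5 in replicate 2, which put methionine at place 19 of 20. The 10 remaining serine genes held 167 and 123 reads, and the 5 remaining asparagine genes 94 and 58. Leucine then came first with 817 reads in sum, followed by proline with 445 and arginine with 400. These are descriptions of where the reads lay, computed after the pairs had been seen.

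Outside the pairs, the genes with most reads of proline, isoleucine and arginine each were the only gene of their anticodon, and each carried an intron. SPATRNAPRO.02, the only proline gene with the anticodon CGG, had 133 and 112 reads, or 9.62 ± 1.01 CPM (SD, n = 2). SPATRNAILE.02, the only isoleucine gene with the anticodon TAT, had 137 and 104 reads, or 9.46 ± 1.68 CPM. SPBTRNAARG.05, the only arginine gene with CCT and the longest tRNA gene with 102 nt, had 103 and 74 reads, or 6.94 ± 1.499 CPM. SPCTRNASER.10, a serine gene with GCT, had 94 and 73 reads, or 6.55 ± 1.06 CPM. The 4 gene sequences, shown because these genes head the unpaired genes with an intron, have the intron in capitals.
SPATRNAPRO.02, chrI:1314924-1315020 (minus strand): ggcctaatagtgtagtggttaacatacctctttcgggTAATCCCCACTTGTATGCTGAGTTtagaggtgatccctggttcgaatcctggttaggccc
SPATRNAILE.02, chrI:2578426-2578524 (plus strand): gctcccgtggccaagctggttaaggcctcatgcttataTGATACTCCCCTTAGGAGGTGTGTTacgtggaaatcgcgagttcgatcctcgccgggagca
SPBTRNAARG.05, chrII:1160893-1160994 (minus strand): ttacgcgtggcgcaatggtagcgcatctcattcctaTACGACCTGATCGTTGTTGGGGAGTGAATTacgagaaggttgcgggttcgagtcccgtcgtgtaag
SPCTRNASER.10, chrIII:1253193-1253287 (plus strand): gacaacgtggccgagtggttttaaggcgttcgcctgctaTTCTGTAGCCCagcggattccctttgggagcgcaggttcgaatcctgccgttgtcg

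The unpaired genes with most reads and no intron were a leucine gene with 79 nt and a phenylalanine gene with 73 nt. SPBTRNALEU.10 had 123 and 111 reads, or 9.19 ± 0.518 CPM, and SPCTRNAPHE.04 had 93 and 60 reads, or 5.997 ± 1.74 CPM (SD, n = 2). Their sequences are shown to set them beside the genes with an intron, with the anticodon in capitals.
SPBTRNALEU.10, chrII:3914043-3914121 (plus strand): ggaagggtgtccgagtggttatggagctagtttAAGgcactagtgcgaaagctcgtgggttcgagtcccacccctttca
SPCTRNAPHE.04, chrIII:331228-331300 (minus strand): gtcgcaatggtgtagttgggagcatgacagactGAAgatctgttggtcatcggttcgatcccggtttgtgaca

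Among the other amino acids, the top gene of tyrosine was SPATRNATYR.01 with 73 and 64 reads, but SPAC105.03c on the opposite strand overlaps it and had 162 and 126. The top lysine gene SPBTRNALYS.09 had 75 and 49 reads, and the top alanine gene SPCTRNAALA.12 had 45 and 31. SPATRNAVAL.04 led the valine genes with 31 and 36 reads, SPBTRNAGLN.01 the glutamine genes with 36 and 28, and SPCTRNATHR.10 the threonine genes with 32 and 21. These leaders had 21 or more reads in each library. SPATRNACYS.01 led cysteine with 19 and 26 reads and SPBTRNAHIS.02 led histidine with 13 and 17. Glycine, glutamate, tryptophan and aspartate had no gene above 18 reads in sum. SPBTRNAASP.05, one of the 8 genes named for aspartate, had 0 and 2 reads. Its annotated strand is the reverse complement of the sequence shared by the other 7, so its reads are of the strand opposite to an aspartate tRNA. Those 7 carry the anticodon GTC, although the reference product of 4 of them, and of SPBTRNAASP.05, reads tRNA-Asn.

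Gene copy number went with the summed CPM only in part. Over the 20 amino acids, Spearman's rho of copy number and summed mean CPM was 0.445, and with the mean over genes in place of the sum it was 0.133. Arginine, leucine and serine had the most copies with 13 each, and their genes ranged from 0 to 177 reads in sum for arginine, 9 to 234 for leucine and 2 to 2786 for serine. Cysteine and tryptophan had the fewest with 3 each, and their genes ranged from 1 to 45 and from 3 to 6 reads in sum. The amino acids share the 2 libraries and their depth, so no p-value is given. By anticodon, 45 different anticodons could be read from the genes, with 1 to 9 genes each, by a search that favoured the named amino acid.

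Genes with an identical sequence had very different reads. The 171 genes carried 69 distinct sequences, and in the 4 identical methionine genes of 72 nt the 3 in a pair had 2753, 1706 and 1265 reads in sum, against 7 for SPBTRNAMET.06 alone. In the 5 identical asparagine genes, SPBTRNAASN.01 in its pair had 733 reads in sum, against 6 to 46 for the other 4. Differences were seen without pairs too. Of the 6 identical proline genes with AGG, SPBTRNAPRO.07 had 131 of their 171 reads and the others 2 to 20. Of the 9 identical alanine genes with AGC, SPCTRNAALA.12 had 76 reads in sum and the others 0 to 10. In the 6 identical isoleucine genes with AAT, in contrast, all had 2 to 6 reads. How reads with several equal mapping positions were placed is not given in the sources used here, so levels of single genes within an identical family are uncertain.

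**Figure D2:**
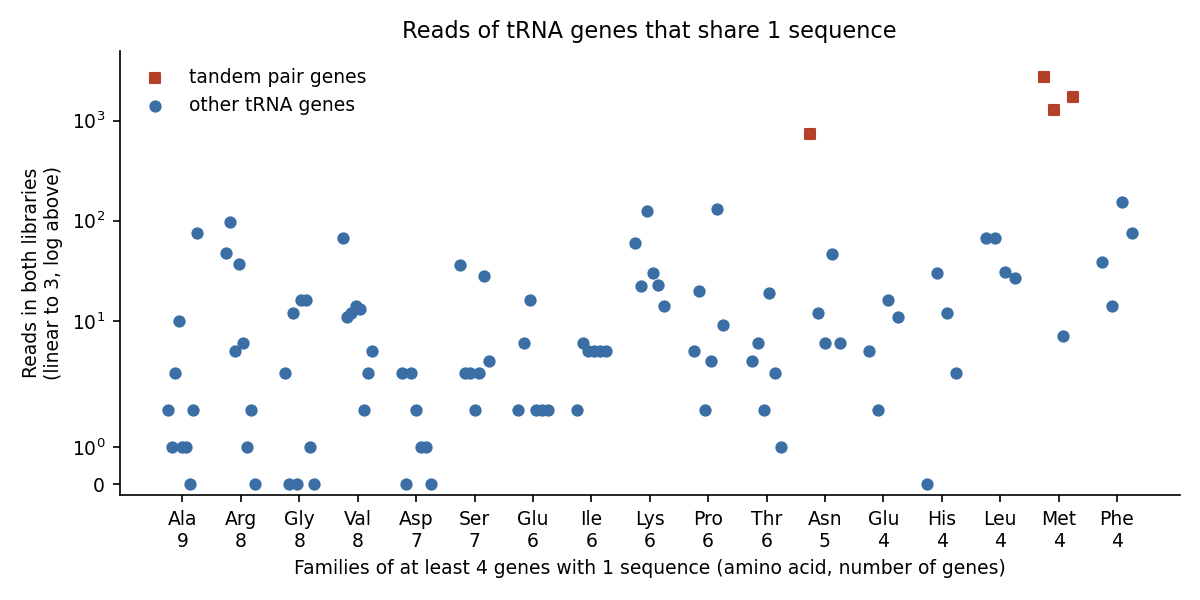
Reads in both libraries together for each gene of the families of at least 4 genes that share 1 sequence, on an axis that is linear to 3 reads and logarithmic above. Red squares are genes of a tandem pair and blue circles the other genes. The 3 methionine genes in a pair lie at 1265 reads or more and the fourth, with the same sequence, at 7.

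Of the 171 genes, 38 shared both their sequence and 50 nt on each side with another tRNA gene, so that a read of the gene itself could not tell them apart. They formed 17 groups of 2 and 1 group of 4, and all lay near a centromere. The leucine genes SPBTRNALEU.06 and SPBTRNALEU.07 had 67 reads in sum each, and SPCTRNALEU.12 and SPCTRNALEU.13 had 31 and 27. The lysine genes SPCTRNALYS.10 and SPCTRNALYS.11 had 30 and 23 reads in sum. The group of 4, alanine genes of chromosome II, had 0 to 2 reads each. The level of a single gene of such a group was not resolved.

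By length, the longer genes had the higher median. The 51 genes over 80 nt had a median of 25 reads in sum, against 6 for the 120 shorter ones, and per 100 nt of gene the medians were 27.7 and 8.11. In mean CPM the ratio of the medians was 4.20, with 3.33 in replicate 1 alone and 5.50 in replicate 2 alone. The ratio depended on the length limit, and was 13.3 for genes over 85 nt and 15.4 for genes over 90 nt. Without the pair genes the medians were 22 and 5 reads in sum and the ratio in mean CPM was 4.37. Over all 171 genes, Spearman's rho of length and mean CPM was 0.412. Outside the pairs, the 14 genes of 91 to 110 nt had a median of 67 reads in sum, the 5 of 84 to 90 nt a median of 19 and the 28 of 81 to 83 nt a median of 12. The 5 genes of 76 to 80 nt had a median of 22, above those of 81 to 90 nt, so the medians did not fall evenly with length. Those 5 are all leucine genes with the anticodon AAG, and the genes of 84 to 90 nt include the 4 tyrosine genes. The groups thus differ in amino acid as well as in length. The 49 genes of 73 to 75 nt had a median of 6 and the 62 of 71 to 72 nt a median of 3.5. The 5 longest genes were SPBTRNAARG.05 with 102 nt and 177 reads in sum, and SPBTRNALEU.06, SPBTRNALEU.07, SPCTRNALEU.12 and SPCTRNALEU.13 with 101 nt and 27 to 67 reads in sum. The groups overlapped, since genes of at most 80 nt outside the pairs reached 234 reads and genes over 80 nt began at 0.

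Most of the longer genes carry an annotated intron. Of the 171 genes, 44 had 1, and outside the pairs the 40 with an intron had a median of 24 reads in sum, against 5 for the 123 without. Leucine and serine tRNAs have a long variable arm, so they are given apart. Among unpaired genes of other amino acids, the 29 with an intron had a median of 14 reads in sum and the 111 without had 5. Among unpaired leucine and serine genes, the 11 with an intron had a median of 37 and the 12 without had 13.5. Intron, length and amino acid go together in these genes, and their separate parts were not tested. The counts do not say whether a read still held its intron.

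**Figure D3:**
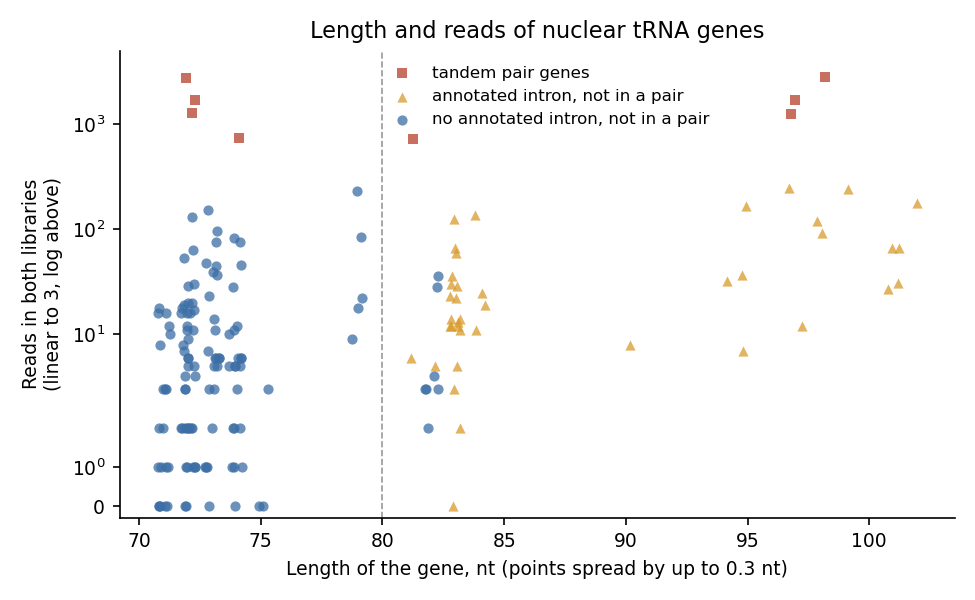
Reads in both libraries together against the length of each nuclear tRNA gene, on an axis linear to 3 reads and logarithmic above, with points spread sideways by at most 0.3 nt. Red squares are tandem pair genes, yellow triangles unpaired genes with an annotated intron and blue circles unpaired genes without. The dashed line marks 80 nt, and the genes over it had a median of 25 reads in sum, against 6 for the others.

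The reference annotates no centromere as a feature, so the middle of the 100 kb window with most tRNA genes was used on each chromosome. Each window was set to begin at a tRNA gene, so its first gene lies 50 kb from the middle by construction. The middle need not be that of the centromere. On chromosome II it was 1648032.5, at one end of the span of RNAs annotated as centromeric, 1597411 to 1648122. A gene within 50 kb of the middle of its window was called near a centromere. These windows held 11 genes on chromosome I, 27 on chromosome II and 21 on chromosome III, or 59 of the 171. Of these, 57 also lay within 50 kb of RNAs annotated as centromeric, and 53 lay inside the span of those RNAs. The tRNA genes near a centromere carried 13.8% of all tRNA reads in replicate 1 and 14.5% in replicate 2. With both genes added, most of that was the pair SPBTRNAMET.05 and SPBTRNAASN.01, at the edge where the window of chromosome II was set to begin. If a read over both genes was counted at each, this sum holds the same reads more than once. Its part with the pair counted once was not computed. Without this pair, the other 57 genes near a centromere carried 5.24% and 5.91%.

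On chromosome II the largest cluster, a run of genes with gaps of at most 5 kb, held 12 tRNA genes and began with that pair. A second cluster of 9 genes repeated the same order of amino acids from tyrosine to arginine. In the first, the 10 genes from SPBTRNATYR.02 to SPBTRNAASP.05 had 1 to 67 reads in sum, and in the second the 9 genes had 2 to 67. SPBTRNALEU.06 in the first and SPBTRNALEU.07 in the second, with 67 reads in sum each, were the highest of these in both. On chromosome III, 8 genes in the first cluster ran from SPCTRNAALA.12 with 76 reads in sum to SPCTRNAARG.11 with 1. SPCTRNAPHE.05, on the other side of the window, had 41 and 35 reads. On chromosome I, SPATRNAVAL.04 had 31 and 36 reads and SPATRNAARG.02 had 22 and 26, while the 6 genes in its clusters of 3 had 1 to 6 in sum.

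The median gene near a centromere had 11 reads in sum, against 8.5 for the 112 genes elsewhere, but within a library the order was the other way. In replicate 1 the medians were 4 and 5 reads, and in replicate 2 they were 3 and 4. The ratio of median CPM was 1.29 for the mean of the libraries, 0.80 in replicate 1 alone and 0.75 in replicate 2 alone, and 0.80 without the pair genes. No direction can be read from it at these depths.

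**Figure D4:**
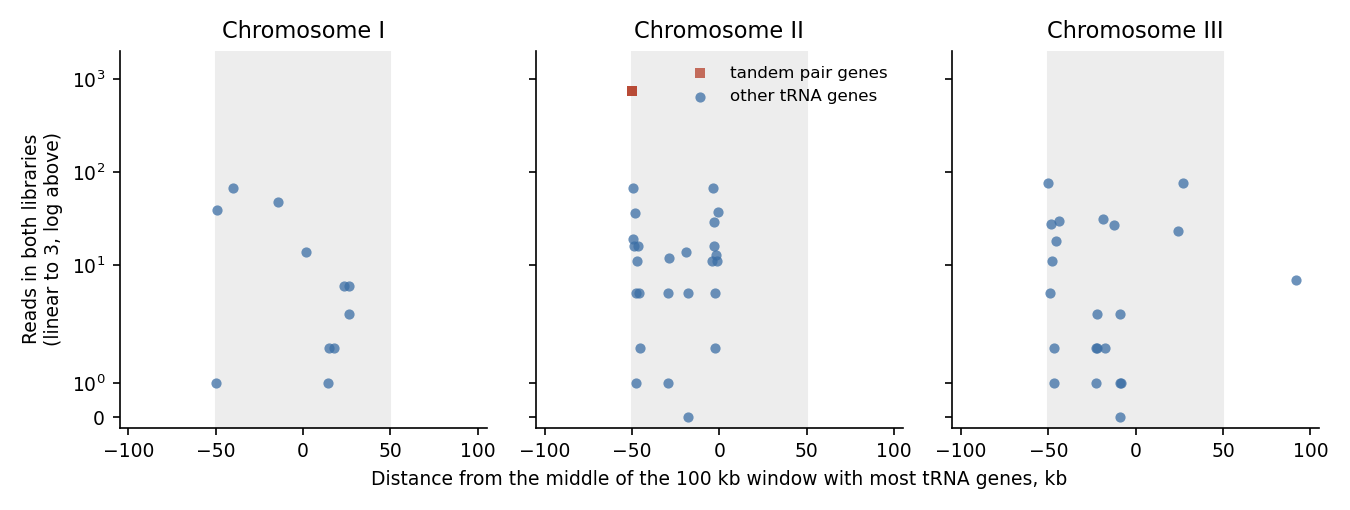
Reads in both libraries together against the distance of each tRNA gene from the middle of the 100 kb window with most tRNA genes of its chromosome, for genes within 100 kb, with the window shaded. Red squares are the pair SPBTRNAMET.05 and SPBTRNAASN.01, which lie at the edge where the window of chromosome II was set to begin. The other 57 genes in the windows had 0 to 76 reads.

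The 2 libraries were compared gene by gene with a two-sided exact binomial test on the share of library totals, adjusted over all 6752 features with at least 10 reads in sum by the Benjamini-Hochberg method. Of the 84 tRNA genes tested, 10 (11.9%) passed an adjusted p of 0.05, against 4.19% of all features tested, and all 10 were higher in replicate 1, against 2.18% of all features tested that were called and higher there. Of all features called, 147 of 283 were higher in replicate 1, and after TMM scaling 254 of 313 were. The p-values compare these libraries only and say nothing of a condition.

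Of the 10 genes, 8 are the pair genes, which are 4 loci rather than 8 independent genes. The log2 ratio of replicate 1 over replicate 2, with 0.5 reads added to each count, was 0.57 at SPCTRNAMET.07 and 0.56 at SPCTRNASER.11, with adjusted p of 1.13e-13 and 2.42e-13. It was 0.55 at both SPATRNASER.03 and SPATRNAMET.03, and 0.31 at both SPATRNASER.01 and SPATRNAMET.01. At SPBTRNAASN.01 it was 0.39 and at SPBTRNAMET.05 0.38, with adjusted p of 0.00962 and 0.0120. All 8 were higher in replicate 1.

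The remaining 2 had low counts and larger ratios. SPATRNALEU.01, a leucine gene of 94 nt, had 27 reads in replicate 1 (exact Poisson 95% interval 1.38 to 3.05 CPM) and 5 in replicate 2 (0.129 to 0.928 CPM), with a log2 ratio of 2.29 and an adjusted p of 0.00419. SPCTRNALYS.11 had 20 and 3 reads, with a log2 ratio of 2.52 and an adjusted p of 0.0151. SPCTRNALYS.11 shares its sequence and flanks with SPCTRNALYS.10, which had 18 and 12 reads. Outside the pairs, 2 of 76 tested tRNA genes (2.63%) were called, so the share of called genes among them was no higher than the 4.19% of all features. Of the 84 tested tRNA genes, 56 had a log2 ratio above 0 and the median over the 84 was 0.31 (0.21 over the 76 outside the pairs), against a median of -0.06 over all features tested.

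**Figure D5:**
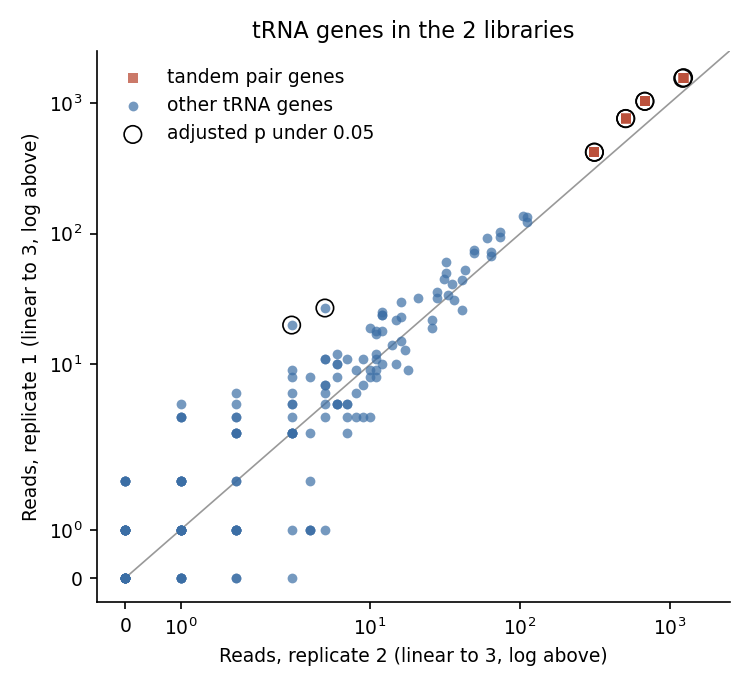
Reads of each nuclear tRNA gene in replicate 1 against replicate 2, on axes linear to 3 reads and logarithmic above. Red squares are tandem pair genes, blue circles the other genes, black rings the 10 genes with an adjusted p under 0.05, and the line marks equal reads. All ringed genes lie above the line.

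The genes that make and use tRNAs are given from 2 lists that were chosen with earlier results of these data known. The aminoacyl-tRNA ligases attach amino acids to their tRNAs, and 17 of the 20 listed genes could be used. Their mRNAs had a median of 86.0 CPM per gene, from 14.9 CPM at qrs1, the ligase for glutamine, to 132 CPM at prs1, the ligase for proline. Of the 17, 5 had an unadjusted p under 0.05 by the exact binomial test, and only hrs1, the ligase for histidine, was called. The reads of hrs1 were lower in replicate 1, with 426 against 525 in replicate 2, a log2 ratio of -0.33 and an adjusted p of 0.0126. The other list holds RNA polymerase III subunits, their factors and tRNA processing enzymes, and 29 of 30 genes were found. Their median was 9.20 CPM, from 2.52 CPM at sen15, a subunit of the endonuclease that splices tRNAs, to 70.9 CPM at tbp1, the TATA-binding protein that also serves the other RNA polymerases. By the exact binomial test 0 of the 29 were called, by the chi-square test 0, and 3 had an unadjusted p under 0.05, while 204 of 4921 protein-coding genes tested were called. How many of those 4921 had an unadjusted p under 0.05 is not given, so the unadjusted counts of both lists have no background to be read against.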

How the data were processed

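The authors used dorado (super accuracy) for base calling of both direct RNA libraries and minimap2 (splice preset) for mapping. The expected counts deposited by the authors are reads per annotated feature, not normalized, and rounding them to whole numbers changed 0 values. No counting tool, rule for reads with several positions or build is given in the sources used here. The header has an empty cell, so each name stands 1 cell right of its data, and columns were aligned by content. Library totals were 12871729 and 12579850 reads.

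All 171 tRNA genes had the same coordinates in the RefSeq annotation of ASM294v3, which gave products, introns and sequence. Anticodons were read from the sequences by a search that favoured positions fitting the amino acid of the identifier. A fitting anticodon was found in 170 genes, which is therefore no independent check of the amino acid. Pairs are genes of 1 strand at most 20 nt apart. Log2 ratios add 0.5 reads. Features with fewer than 10 reads in sum were not tested. The genes named are the 10 with highest mean CPM, the highest of each amino acid, the 5 longest, and those called different between libraries; others singled out, and the pairs, were chosen after their values were seen. The members and lists were chosen with earlier results of these data known. Of the listed ligase symbols, 17 named a tRNA ligase in the reference. Scripts used Python 3.11.15 with scipy 1.17.1 and pandas 2.3.3, and R 4.3.3 with edgeR 4.0.16 and DESeq2 1.42.0 for the scaling factors only. Other scalings, minimum counts, tests, windows and length limits, each library alone, and omission of the pair genes were tried. P-values measure only the difference between these libraries.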

Additional observations from a re-analysis of the deposited data

How the results depend on the processing

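The count of 10 tRNA genes that differed between libraries was 10 under TMM factors, DESeq2 size factors, no minimum and the chi-square test, with the same 10 genes each time, and 8 with at least 100 reads in sum. It was 2 where at least 2-fold was required and 2 without the pair genes. The tRNA share of 0.0666% became 0.170% of a total without rRNA features, 0.253% of the total of protein-coding genes, 0.0412% with each pair counted once and 0.0159% without the pair genes. The ratio of median levels for genes over 80 nt was 13.3 over 85 nt and 15.4 over 90 nt, and ranged from 3.33 to 5.50 when either replicate was left out. The rho of length and level, 0.412, was 0.401 as Pearson's r on log2(CPM + 1), 0.284 among genes with at least 10 reads, 0.298 without leucine and serine, and 0.393 to 0.408 when either replicate was left out. The rho of copy number and level, 0.445, was 0.133 with the mean over genes, 0.339 for genes of 80 nt or less, 0.309 by anticodon, 0.586 without the pair genes, and 0.435 to 0.448 when either replicate was left out. The ratio for genes near a centromere, 1.29, was 0.499 in windows of 25 kb, 1.00 in windows of 100 kb, 0.824 for genes of 80 nt or less, 1.09 for amino acids with genes both near and away, 0.802 without the pair genes, and 0.75 to 0.80 when either replicate was left out. The cause of these differences was not tested. Omission of the pair genes, counting each pair once and the window around centromeric RNAs were chosen after seeing the data. With 87 of 171 genes under 10 reads in sum, depth limits most single-gene levels, and reads of genes with identical sequence and flanks cannot be told apart. No paired analysis was possible because there is only 1 group.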
